A study of Mus musculus with 5 samples.

Results

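The loci described here are the genes Bcl11b, Gata3, Tcf7, Lef1, Cd3e, Cd3d and Cd3g, which mark T cells, as read by reduced representation bisulfite sequencing (RRBS) in mouse. RRBS cuts DNA with MspI, which recognises CCGG, so CpG-rich fragments are enriched, and bisulfite treatment then separates methylated from unmethylated cytosines. Members were all CpGs of 5 fixed windows of the mm9 build for which each of the 5 libraries had a second count of 10 or more. The second count rises with the number of reads that cover a CpG and stands in for it here. This gave 1253 CpGs of 1780536 autosomal CpGs in the series. The Bcl11b window spans 110 kb, with its 506 member CpGs at chr12:109141970-109248918. The Gata3 window spans 35 kb, with 268 member CpGs at chr2:9773012-9804974, and the Tcf7 window 45 kb, with 164 at chr11:52065505-52100089. The Lef1 window spans 120 kb, with 276 member CpGs at chr3:130810124-130926309, and 1 window of 50 kb holds the 3 Cd3 genes together, with 39 at chr9:44775881-44804837.

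The series holds 1 WT library from wildtype mice, 2 K36M libraries and 2 K9M libraries. The labels give the mutants as dominant negative forms of histone H3.3 at lysine 36 and at lysine 9, and the mutant mice were induced with doxycycline at 2 mg/ml in drinking water. Whether the WT mice also drank doxycycline, the promoter that drives the mutant histone, and the age and strain of the mice are not stated in the labels. The labels name the cells HSCs (hematopoietic stem cells) and also state that they were sorted from peripheral blood. DNA came from pellets of 100k cells, and the labels do not state that replicates came from different animals. The p-values therefore refer to these libraries, whose spread may be technical. Where the spread in a tile did not exceed counting error, its p-value measures counting error instead. WT has no replicate, and the fits assume that it varies like the mutant pairs.

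Libraries listed between 3356656 and 3534966 CpGs, and the mean second count per member CpG lay between 37.7 and 48.6. The deposited fraction of K9M replicate 2 was read as being on another scale than that of the other 4 libraries. Values are therefore given as a relative level, the ratio of methylated to second count in percent of the ratio that the library reaches at its most methylated tiles, and this level can pass 100%. Differences between libraries or groups are in points of this level. Just inside the coverage minimum, 203 CpGs with a lowest second count of 10 to 14 had pooled levels of 50.4% to 54.2%, and just outside it, 231 CpGs with a lowest second count of 5 to 9 had pooled levels of 47.3% to 51.5%.

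BCL11B, GATA3, TCF-1 (the product of Tcf7) and LEF1 are transcription factors that act in the thymus downstream of Notch signalling as progenitors become T cells. BCL11B closes off other fates, GATA3 is needed for early T cells and again for T helper 2 cells, and TCF-1 and LEF1 are related factors that bind beta-catenin. CD3 epsilon, delta and gamma are the chains that carry the signal of the T cell receptor into the cell. Genes of a lineage often keep unmethylated CpG islands at their starts in all blood cells, while flanks and enhancers can lose methylation in the lineage that uses them.

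RefSeq's stretches of 300 bases, 250 before to 50 after the start, hold 9 CpGs for Bcl11b, 22 for Gata3, 45 for Tcf7 and 21 for Lef1. Methylation over these 300 bases was low in every library, and the bases before each start are shown. The part shown holds 3 of the 10 measured CpGs for Lef1 and 22 of the 36 for Tcf7. The letters are RefSeq's for the GRCm38.p6 build, and the mm9 positions come from matching the spacing of CpGs in those letters to the positions that the libraries list. Each runs 5′ to 3′ on the gene's strand, with measured CpGs in capitals. Bcl11b is chr12:109241625-109241874 on the minus strand, Gata3 is chr2:9800228-9800477 on the minus strand, Tcf7 is chr11:52096517-52096681 on the minus strand and Lef1 is chr3:130812991-130813240 on the plus strand. For Tcf7 the start is one of those RefSeq lists, and the 165 bases before it are shown from the first ATG on.
Bcl11b: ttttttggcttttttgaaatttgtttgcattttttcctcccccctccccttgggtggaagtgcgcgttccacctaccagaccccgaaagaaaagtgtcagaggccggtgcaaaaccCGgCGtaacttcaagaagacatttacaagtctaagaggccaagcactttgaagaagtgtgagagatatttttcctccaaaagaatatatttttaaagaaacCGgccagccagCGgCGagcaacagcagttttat
Gata3: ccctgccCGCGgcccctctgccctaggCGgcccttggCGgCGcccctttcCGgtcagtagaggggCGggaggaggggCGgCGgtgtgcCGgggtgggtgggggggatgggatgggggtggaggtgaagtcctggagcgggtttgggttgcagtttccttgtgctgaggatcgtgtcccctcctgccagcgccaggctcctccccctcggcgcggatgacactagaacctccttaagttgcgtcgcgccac
Tcf7: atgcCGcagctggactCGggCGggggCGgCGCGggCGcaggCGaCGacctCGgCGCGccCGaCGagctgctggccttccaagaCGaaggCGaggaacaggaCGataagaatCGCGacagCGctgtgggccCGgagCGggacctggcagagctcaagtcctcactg
Lef1: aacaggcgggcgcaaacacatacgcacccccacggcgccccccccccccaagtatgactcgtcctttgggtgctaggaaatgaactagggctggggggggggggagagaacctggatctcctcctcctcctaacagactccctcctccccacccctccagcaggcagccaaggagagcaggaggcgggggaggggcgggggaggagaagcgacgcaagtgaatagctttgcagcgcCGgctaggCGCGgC
RefSeq's stretches of 300 bases, 250 before to 50 after the start, hold 8 CpGs for Cd3e, 4 for Cd3g and 1 for Cd3d, and none of the 3 holds CCGG, the MspI site. Over all 32851 RefSeq stretches of that length the median was 7 CpGs, and 52.8% held CCGG. The Cd3 starts could not be placed on mm9, so none of the 3 genes has a start value here.

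Methylation at the 4 placed starts was near 0 in every library. The Bcl11b stretch of 300 bases, with 5 measured CpGs, was at 4.43% in WT, 4.09% and 3.23% in the K36M pair and 1.51% and 4.11% in the K9M pair. The Gata3 stretch, with 10 measured CpGs, was at 0.600% in WT, 0.578% and 0.106% in the K36M pair and 0.380% and 0.462% in the K9M pair. For Tcf7, with 36 measured CpGs, the values were 0.697% in WT, 0.427% and 0.832% in the K36M pair and 0.582% and 0.563% in the K9M pair. The Lef1 stretch, with 10 measured CpGs, was at 0.815% in WT, 1.10% and 1.33% in the K36M pair and 1.03% and 0.548% in the K9M pair. At Bcl11b, Gata3 and Tcf7 the values of K36M and K9M overlapped. At Lef1 both K36M libraries lay above both K9M libraries, by less than 1 point. These levels rest on few methylated counts, from 1 to 21 per library and stretch.

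Over the 5 windows together, the libraries differed by less than 2 points. Pooled levels were 36.2% for WT, 34.4% and 35.1% in the K36M pair and 35.9% and 35.5% in the K9M pair. Both K36M libraries were the lowest, WT was the highest, and the K36M and K9M pairs did not overlap. K36M differed from WT by -1.49 points, where the same difference over all autosomal CpGs was -1.12 points. The difference between K36M and K9M was -0.949 points, against -0.742 points over all autosomal CpGs. Its exact two-sided permutation p was 0.333, and no smaller value is possible with 2 libraries in each group. K9M differed from WT by -0.538 points, and this direction turned when CpG levels were averaged without weights, at 0.516 points, and with levels as deposited, at 2.54 points. The plot of window levels shows that the windows differed from each other far more than the libraries did.

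**Figure D1:**
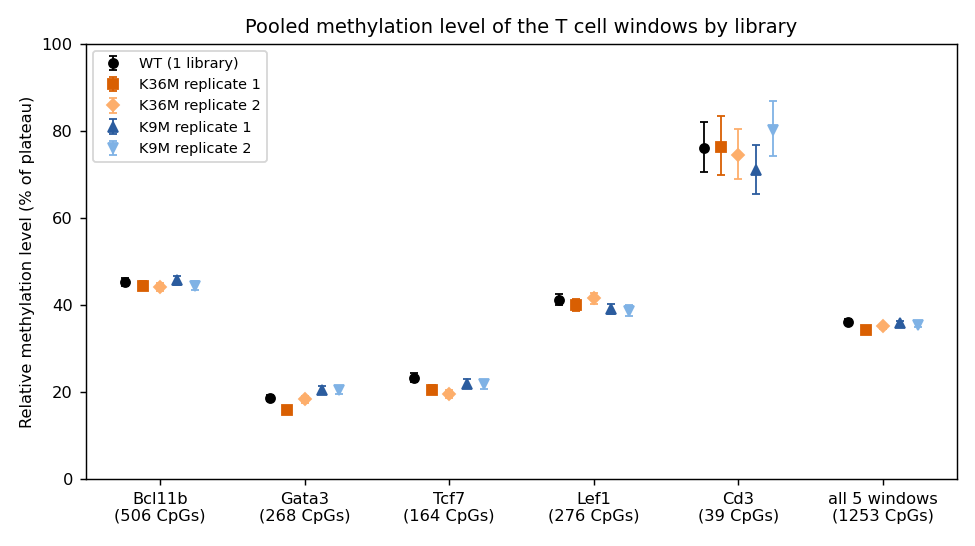
Pooled relative methylation level, in percent of the library plateau, of each window and of all 5 together (x axis) in each library (symbols), with 95% counting intervals. The Gata3 and Tcf7 windows lie near 20%, Bcl11b and Lef1 near 40% and the Cd3 window between 71.0% and 80.3% in every library.

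In the test of 1 kb tiles, the windows gave 92 tiles with at least 3 member CpGs, of 152678 in the series. Each was fitted with a logistic model with moderated dispersion and Benjamini-Hochberg adjustment over all 152678 tiles, and called tiles are those that reached an adjusted p under 0.05 and differed by 10 points or more. K36M against WT gave 0 called tiles in the windows, beside 0.447% of all tiles called lower and 0.0124% called higher. At an unadjusted p under 0.05, 8 window tiles were lower and 2 higher in K36M, beside 3.79% and 1.35% of all tiles. Plain limma on relative levels called 0 tiles in the whole series in each comparison, so its 0 in the windows carries no information, and limma with a variance trend called 0 in the windows. K9M against WT gave 0 called tiles, beside 0.0255% of all tiles lower and 0.0472% higher, and 0 called in the windows by limma with a variance trend. Here 1 window tile was lower and 3 were higher at an unadjusted p under 0.05, beside 1.23% and 1.59% of all tiles. K36M against K9M gave 1 called tile, lower in K36M and in the Gata3 window, beside 1.18% of all tiles called lower and 0.0675% called higher. A count of 1 in 92 tiles is near that background. In that comparison 8 window tiles were lower and 2 higher at an unadjusted p under 0.05, beside 5.46% and 1.85% of all tiles. The shares of all tiles depend on how the dispersion was moderated.

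Tiles of intermediate methylation were lower in K36M in the windows and in the series alike. The 16 window tiles with a mean level of 20% to 80% averaged 61.4% in WT, 53.1% and 53.2% in the K36M pair and 60.9% and 67.1% in the K9M pair. Both K36M libraries lay below WT and below both K9M libraries. K36M differed from WT by a mean of -8.28 points, against -6.58 points over all such tiles of the series. Both K36M libraries were below WT in 10 of the 16 tiles, or 62.5%, against 57.2% of all such tiles. Over all 92 tiles, both K36M libraries were below WT in 41, or 44.6%, against 38.8% in the series. They were above WT in 24, or 26.1%, against 25.1%. The K36M pair was below the K9M pair in 27, or 29.3%, against 29.0%, and above it in 16, or 17.4%, against 12.9%. In the 22 tiles with a mean level under 20%, the K36M pair was above the K9M pair in 11, or 50%, against 25.5%. It was below in 4, or 18.2%, against 18.98%. Both K36M libraries were above WT in 11 of these 22, or 50%, against 39.4%, and below in 7, or 31.8%, against 29.0%. K36M minus K9M there had a median of 0.222 points and a mean of -0.377 points.

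**Figure D2:**
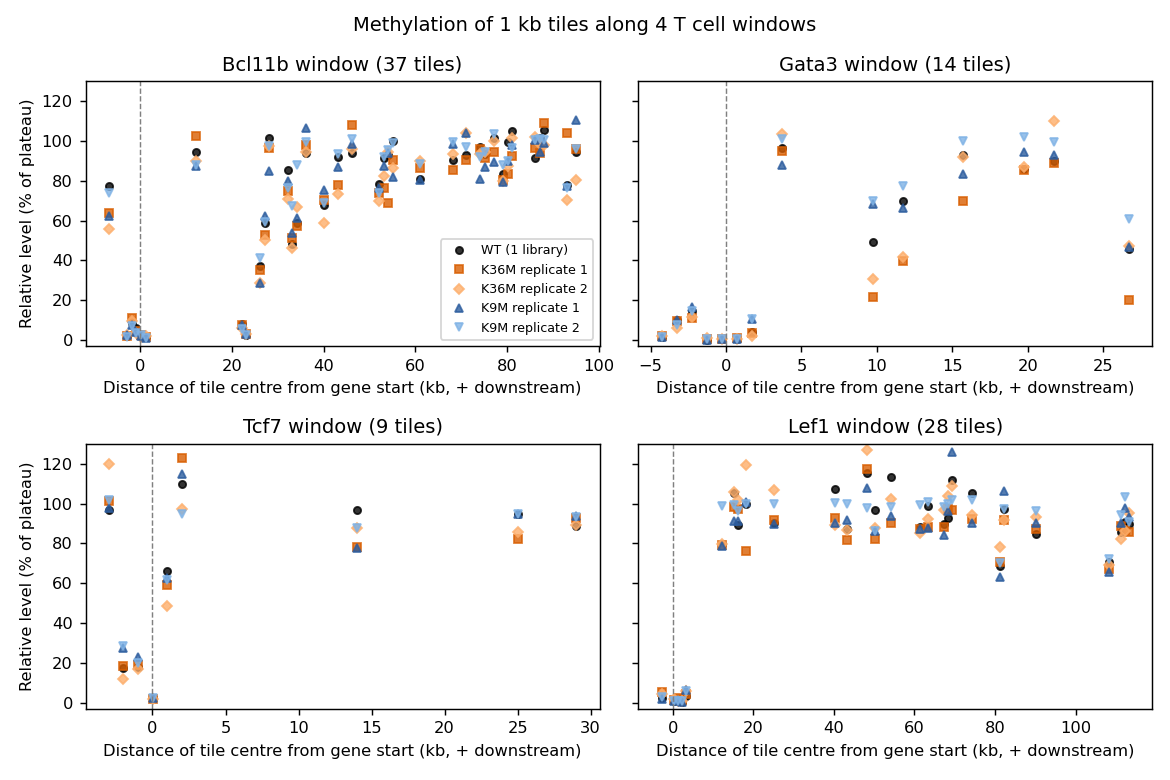
Relative level of each 1 kb tile, in percent of the plateau, against the distance of its centre from the placed gene start in kb, positive downstream, for each library (symbols) in the Bcl11b, Gata3, Tcf7 and Lef1 windows. All 4 windows are low at the start (dashed line). Most tiles are over 80% in the Bcl11b, Tcf7 and Lef1 windows and 4 of 14 in the Gata3 window, and the libraries separate most in the Gata3 window about 10 kb downstream.

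Bcl11b had the most member CpGs, and its window level was nearly the same in all libraries. It was 45.4% in WT, 44.5% and 44.2% in the K36M pair and 45.7% and 44.4% in the K9M pair, and the mutant pairs overlapped. K36M differed from K9M by -0.746 points (exact permutation test, two-sided p 0.667). The CpG-dense tiles within about 3 kb of the start were between 1.01% and 10.99% in every library. Of these, the tile 1.6 to 2.1 kb upstream held 28 CpGs and is described with its values known. It was at 8.66% in WT, 10.99% and 9.74% in the K36M pair and 7.39% and 7.31% in the K9M pair. K36M lay 3.01 points above K9M there, with an adjusted p of 0.155 in the logistic model. A further low region lay inside the window 22.1 to 23.1 kb downstream of the start. Its CpG-dense tile, with 41 CpGs, was at 2.38% in WT, 3.27% and 2.85% in the K36M pair and 2.84% and 2.77% in the K9M pair. In contrast, a CpG-dense stretch 86.1 to 87.1 kb downstream was methylated in every library. Its 2 tiles, with 85 CpGs, averaged 96.6% in WT, 95.3% and 100.0% in the K36M pair and 97.4% and 100.6% in the K9M pair. CpG-dense tiles thus lay at both ends of the range of levels.

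The Bcl11b tile with the largest negative difference in K36M against WT lay 6.9 to 7.3 kb upstream of the start and held 10 CpGs. It was at 77.6% in WT, 63.6% and 55.7% in the K36M pair and 62.2% and 73.7% in the K9M pair. The difference of -17.9 points from WT had an adjusted p of 0.712 in the logistic model, and K9M replicate 1 lay between the K36M libraries. The tile with the largest positive difference, 93.1 kb downstream with 3 CpGs, was at 77.8% in WT, 104.0% and 70.2% in the K36M pair and 77.1% and 76.4% in the K9M pair, so 1 K36M library carried it. In K9M against WT, the largest negative difference was -10.7 points and the largest positive difference was 15.8 points, both with an adjusted p of 1. The largest negative difference in K36M against K9M was -15.2 points, also with an adjusted p of 1.

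On the relative level with all libraries, Gata3 was the window where the mutants differed most from each other. With levels as deposited the difference was -3.30 points at Gata3, -5.07 at Bcl11b and -14.7 at Cd3, and without K9M replicate 1 it was -3.37 points at Gata3 and -4.89 at Cd3. Its window stood at 18.7% in WT, 16.0% and 18.4% in the K36M pair and 20.6% and 20.6% in the K9M pair, with both K36M libraries below WT and both K9M libraries above it. The gap of -3.39 points between K36M and K9M was larger than the SD of either pair, at 1.67 and 0.0256 (n = 2 each). Its exact permutation p, two-sided, was 0.333. Without the Gata3 window, a setting not planned in advance, the pooled difference between K36M and K9M over the other 4 windows was -0.168 points, against -0.949 points with it. This only describes the part of the window with the largest difference, and Lef1 among the others went the other way, at 1.87 points. The Gata3 window held the low block around the start, with 7 tiles that had a mean level under 20%, and 7 tiles of higher level on the downstream side.

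The called tile lay 9.3 to 9.8 kb downstream of the placed Gata3 start, at chr2:9790001-9791000, and held 4 CpGs. It was at 49.1% in WT (95% counting interval 38.8% to 61.9%), 21.6% and 30.9% in the K36M pair and 68.2% and 69.9% in the K9M pair. WT lay between the mutant pairs, which did not overlap. K36M lay 42.8 points below K9M with an adjusted p of 0.00545 in the logistic model, at a second count of 137 to 211 per library. The dispersion of this tile was held at its floor of 1, so that p-value measures counting error, with CpGs taken as independent. Against WT, K36M differed by -22.9 points with an adjusted p of 0.264, and K9M by 19.9 points with an adjusted p of 1, so neither mutant was called against WT there. The call was lost when any 1 mutant library was left out, with adjusted p-values of 0.130 and 0.113 without K36M replicates 1 and 2 and 0.0535 and 0.0555 without K9M replicates 1 and 2, and with plain limma, at 0.227. It was kept with limma and a variance trend, at 0.0333. The difference itself stayed between -38.1 and -47.4 points without 1 mutant library.

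Within this tile 3 neighbouring CpGs carried the difference. The CpG 9.81 kb downstream was at 47.5% in WT, 16.4% and 33.7% in the K36M pair and 80.3% and 77.6% in the K9M pair. At the CpG 9.78 kb downstream the values were 64.4% in WT, 30.4% and 39.7% in the K36M pair and 86.8% and 92.3% in the K9M pair. The CpG 9.76 kb downstream was at 52.4% in WT, 18.8% and 31.2% in the K36M pair and 70.8% and 74.9% in the K9M pair. All 3 had the order K36M, WT, K9M, and since they lie within 56 bases they can share reads. The fourth CpG, 9.33 kb downstream, was at or under 5.82% in every library.

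A second Gata3 tile, 11.3 to 11.4 kb downstream with 4 CpGs, had the largest negative difference of its window in K36M against WT. It was at 69.7% in WT, 39.9% and 41.7% in the K36M pair and 66.4% and 77.2% in the K9M pair. Both K36M libraries lay below WT and both K9M libraries, at all 4 CpGs, which lie within 101 bases and can share reads. K36M differed from WT by -28.9 points with an adjusted p of 0.408, and from K9M by -31.0 points with an adjusted p of 0.107, so the tile was not called. A further tile, 26.9 to 27.2 kb downstream, was at 45.6% in WT, 20.2% and 47.4% in the K36M pair and 46.8% and 61.0% in the K9M pair, and there K36M replicate 1 alone was low.

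At the downstream edge of the low Gata3 block, both K9M libraries were higher than the other 3. This tile, chosen for description after its values were seen, lay 1.3 to 2.0 kb downstream of the start and held 30 CpGs. It was at 4.22% in WT, 3.47% and 2.24% in the K36M pair and 10.8% and 10.4% in the K9M pair. The difference of -7.74 points between K36M and K9M had an adjusted p of 0.000654 in the logistic model but fell short of the 10 points that a call needs. Its adjusted p was 0.268 with limma, 0.00802 with limma and a variance trend, and 0.0142 to 0.0517 without 1 mutant library, the highest without K36M replicate 2. K9M against WT, at 6.37 points, had an adjusted p of 0.0842. The CpG farthest from the start, 2.00 kb downstream, was at 43.3% in WT, 24.9% and 27.9% in the K36M pair and 98.5% and 79.97% in the K9M pair. Nearer the start the levels fell in all libraries, and in 17 of the 30 CpGs the K36M pair was below the K9M pair. That count only describes a tile chosen by its values, and neighbouring CpGs can share reads.

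**Figure D3:**
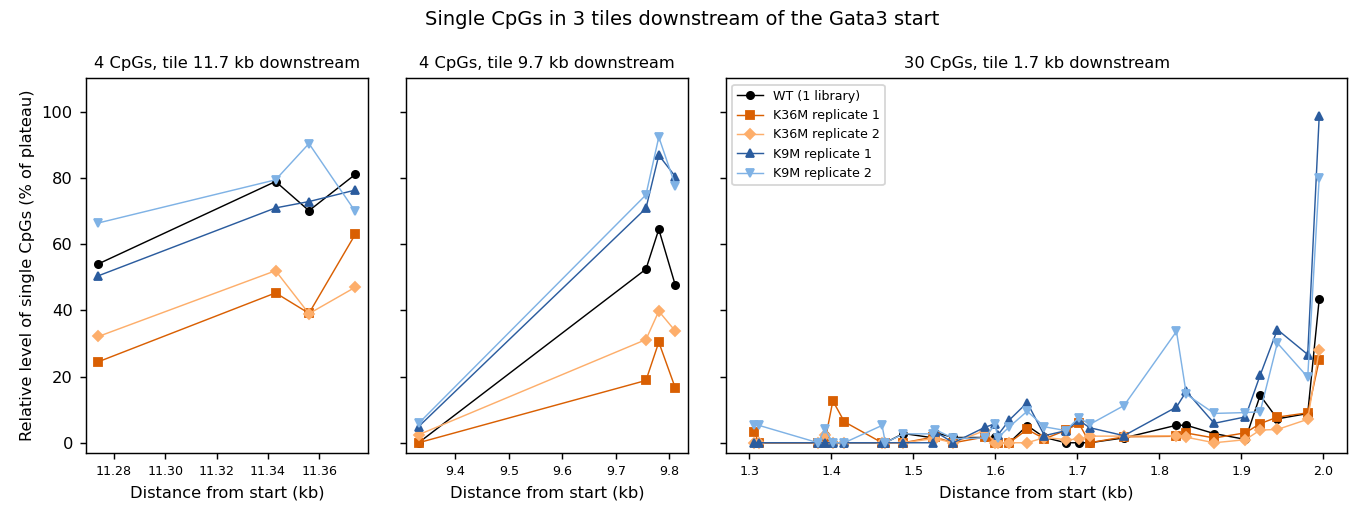
Relative level of single CpGs, in percent of the plateau, against their distance downstream of the placed Gata3 start in kb, for 3 tiles and 5 libraries (symbols joined by lines). The K36M libraries lie below the K9M libraries at all 4 CpGs in each of the left and middle panels, and in the right panel the K9M libraries are highest at the outer edge, at 98.5% and 79.97%.

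Tcf7 had a low window level, with K36M lowest. It was 23.3% in WT, 20.6% and 19.6% in the K36M pair and 21.9% and 21.8% in the K9M pair, and the mutant pairs did not overlap. K36M differed from WT by -3.22 points and from K9M by -1.77 points (exact permutation test, two-sided p 0.333). The tile over the start, with 94 CpGs, was at 2.31% in WT, 2.06% and 1.98% in the K36M pair and 2.24% and 2.46% in the K9M pair, and the libraries lay within 1 point of each other. The tile 0.5 to 1.1 kb downstream, with 15 CpGs, was at 66.0% in WT, 59.3% and 48.6% in the K36M pair and 62.5% and 61.9% in the K9M pair.

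Upstream of the Tcf7 start, the edge of the low block differed between the mutants in the same direction as at Gata3, though no tile was called. The Bcl11b tile 1.6 to 2.1 kb upstream of its start went the other way, with K36M 3.01 points above K9M. The Tcf7 tile 1.5 to 2.5 kb upstream, with 7 CpGs, was at 17.7% in WT, 18.3% and 12.0% in the K36M pair and 27.7% and 28.3% in the K9M pair. K36M lay 12.9 points below K9M with an adjusted p of 0.0595 in the logistic model, and K9M differed from WT by 10.4 points with an adjusted p of 1. The tile is named because it had the largest negative difference of its window in this comparison, so counts of its CpGs only describe it. At 5 of the 7 CpGs both K36M libraries lay below both K9M libraries. Those 5 CpGs were at 0 to 13.7% in K36M, 4.22% to 10.1% in WT and 14.9% to 38.1% in K9M. The outer 2 CpGs were high in most libraries, between 37.4% and 104.8%.

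**Figure D4:**
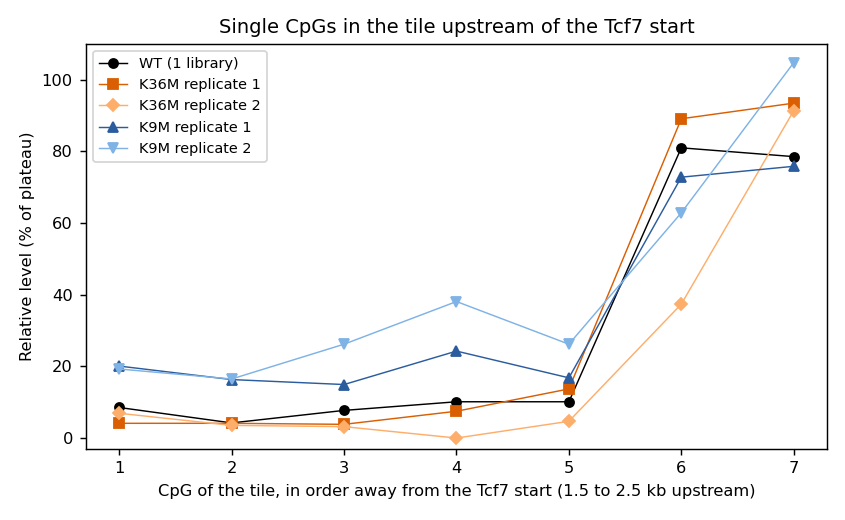
Relative level, in percent of the plateau, of the 7 CpGs of the tile 1.5 to 2.5 kb upstream of the Tcf7 start, in order away from the start, in 5 libraries (symbols joined by lines). The first 5 CpGs are at 14.9% to 38.1% in K9M and at or under 13.7% in K36M and WT.

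Lef1 did not follow the direction of Gata3 and Tcf7. Its window stood at 41.3% in WT, 40.04% and 41.6% in the K36M pair and 39.1% and 38.8% in the K9M pair, with K36M 1.87 points above K9M (exact permutation test, two-sided p 0.333). This direction turned with levels as deposited, at -2.42 points, and with the mean of CpG levels, at -0.492 points. The 3 CpG-dense tiles at the start, with 116 CpGs, averaged 0.783% in WT, 1.70% and 1.19% in the K36M pair and 0.949% and 0.831% in the K9M pair. Beyond the start, 23 tiles were methylated, with unweighted means of the tile levels of 93.8% in WT, 88.4% and 94.9% in the K36M pair and 91.3% and 95.7% in the K9M pair. The tile with the largest negative difference in K36M against WT, at -17.1 points with 4 CpGs, had an adjusted p of 1, and K9M differed from WT by -17.0 points there. The largest positive difference in K36M against K9M, 18.96 points over 3 CpGs, also had an adjusted p of 1.

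The Cd3 genes, which lie next to each other, were thinly covered. The window held 39 member CpGs in 50 kb and only 4 tiles. It stood at 76.2% in WT, 76.4% and 74.4% in the K36M pair and 71.0% and 80.3% in the K9M pair, so the K9M libraries lay on either side of all others. K36M and K9M differed by -0.265 points (exact permutation test, two-sided p 1). A gap of this size was not detectable here, since the K9M pair alone had an SD of 6.54 (n = 2). One tile, with 10 CpGs at chr9:44794001-44795000, was unmethylated, at 0.772% in WT, 0.465% and 0.363% in K36M and 0 in both K9M libraries. The tile with 12 CpGs at chr9:44804001-44805000 was at 89.3% in WT, 98.5% and 93.2% in the K36M pair and 100.3% and 101.0% in the K9M pair. No tile of this window was assigned to Cd3e, Cd3d or Cd3g.

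The other listed genes give the scale against which the T cell loci can be read. Of 30 further T cell genes, the starts of 7 could be placed by the main rule, and 35 tiles lay within 10 kb of them. In K36M, 1 of these 35 tiles was called lower than WT, beside 0.447% of all tiles, and 2 were called lower than K9M, beside 1.18%. All were near Runx3, a factor of CD8 T cells and natural killer cells. The Runx3 locus was at 16.3% in WT, 11.7% and 11.9% in the K36M pair and 17.9% and 16.2% in the K9M pair. Read per locus, the median difference between K36M and WT was -0.797 points in the T cell list, -2.09 points in 4 stem and progenitor genes and -2.86 points in 3 myeloid genes. It was 0.229 points in the 1 placed gene that is not of blood. Read per tile, it was -5.04 points in the 35 T cell tiles, of which Runx3 and Runx1 hold 20, -0.370 points in the 32 stem and progenitor tiles, -0.909 points in the 22 myeloid tiles and -0.483 points over all tiles of the series. A looser rule, chosen after the placements were seen, also placed the T cell genes Lck and Zap70, which had no called tile. Lck was at 54.1% in WT, 46.5% and 49.1% in the K36M pair and 57.9% and 59.9% in the K9M pair. At Zap70 the mutant pairs overlapped. With the genes of that rule added, the median K36M difference from WT per locus was -2.67 points in the T cell list. It was -1.05 points in 6 stem and progenitor genes, -1.89 points in 4 myeloid genes and -3.28 points in 2 erythroid and megakaryocyte genes. In 4 genes that are not of blood it was 1.24 points, and in 1 B cell gene 1.03 points. The order of the lists thus depended on the reading and on the placement rule.

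Calls also fell at loci of other lineages, which are named because they had calls. Among the 22 tiles of 3 myeloid genes, Gfi1, a repressor used in granulocyte and lymphoid cells, had 1 tile called lower in K36M than in WT and 1 lower than in K9M. The Gfi1 locus was at 20.1% in WT, 9.69% and 8.15% in the K36M pair and 20.6% and 25.2% in the K9M pair. Among the 32 tiles of the stem and progenitor genes, Gata2, a factor of blood stem cells, had 1 tile called lower in K36M than in WT, 2 called higher in K9M than in WT and 3 called lower in K36M than in K9M. Over all tiles these shares were 0.447%, 0.0472% and 1.18%. The Gata2 locus was at 13.0% in WT, 9.44% and 8.74% in the K36M pair and 16.9% and 16.2% in the K9M pair. Both loci had the order K36M, WT and K9M that the Gata3 window had. Among genes added by the looser rule, Lyl1, Tal1 and Epor, with 9, 6 and 6 tiles, each had 1 tile called lower in K36M than in K9M. Over all tiles that share was 1.18%. Lyl1 also had 1 tile called lower in K36M than in WT, beside 0.447% of all tiles. No tile was called at the other listed loci of that rule, Lck, Zap70, Cebpa, Itga2b, Pax5, Neurod1, Nkx2-1 and Sox1.

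Low methylation near a start was not limited to genes of blood in these libraries. The region around Pax6, a gene of eye and brain development, was at 4.40% in WT, 5.11% and 4.14% in the K36M pair and 4.54% and 4.44% in the K9M pair. The stem cell gene Meis1 was at 0.507% in WT, 0.447% and 0.407% in the K36M pair and 0.747% and 0.768% in the K9M pair. No start of a B cell or natural killer gene was placed by the main rule. The looser rule placed the B cell gene Pax5, whose locus was at 3.55% in WT, 5.12% and 4.04% in the K36M pair and 4.07% and 3.92% in the K9M pair, with all 4 mutant libraries above WT. With islands of stem, T cell and brain genes all low, these loci could not check the label HSCs. Of the listed loci placed by the main rule, those most like the 5 windows in how the libraries deviate from their mean were Foxp1, Meis1 and Ikzf1, with root mean square distances over 5 libraries of 0.540, 0.593 and 0.623 points, and all 3 varied little between libraries.

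Whether the share of T cells differs between libraries was examined with read depth at the T cell receptor alpha and delta genes. As a T cell rearranges its alpha chain genes, the DNA between the joined segments, delta genes included, is cut out and lost as cells divide, so DNA of alpha beta T cells has fewer copies there than DNA of other cells. The region was chr14:54573604-54833603, 40 to 300 kb below the placed start of Dad1, the gene beside the locus, and the flank was the 300 kb above that start. The second count in the region over that in the flank, in percent of the mean of the 5 libraries, was 95.3 in WT, 103.8 and 106.1 in the K36M pair and 101.9 and 92.9 in the K9M pair, from 60 CpGs in the region and 811 in the flank. K36M was highest, WT and K9M replicate 2 were lowest, and K9M replicate 1 lay between. The 2 K9M libraries differed by 8.95 percent of the mean, against 9.58 for K36M over WT, and the exact permutation p of K36M against K9M, two-sided, was 0.333.

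The counting interval of WT, 91.4 to 99.4, met that of K36M replicate 1, 99.1 to 108.6, but not that of K36M replicate 2, 101.7 to 110.6. These intervals cover counting error only, with CpGs taken as independent. Neighbouring CpGs can share reads, so the intervals can be too narrow, and intervals that do not meet do not show that libraries differ. At a coverage minimum of 5, both K36M intervals, 100.02 to 109.0 and 101.5 to 109.8, lay clear of that of WT, 92.0 to 99.5. Taken as the median over CpGs, the depths were 94.8 in WT, 108.8 and 107.6 in the K36M pair and 98.2 and 90.6 in the K9M pair. With methylated CpGs only, a restriction chosen after seeing the data because the second count may depend on the level, the values were 94.4 in WT, 108.6 and 101.5 in the K36M pair and 101.2 and 94.2 in the K9M pair. The interval of K36M replicate 1, 103.1 to 114.5, then lay clear of that of WT, 90.04 to 99.1, and that of K36M replicate 2, 96.7 to 106.5, did not. K36M replicate 2 and K9M replicate 1 then differed by less than 1 percent of the mean. No library of sorted T cells or of cells without T cells is in the series, so a depth could not be turned into a share of T cells. The second count of K9M replicate 2 was also read in another way than that of the other libraries. In the called Gata3 tile, K9M replicate 1, which was read like the rest, was at 68.2%, and without replicate 2 the difference was -41.9 points with an adjusted p of 0.0555, so that the call was lost. The part of a differing share of T cells in the methylation differences was not tested.

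**Figure D5:**
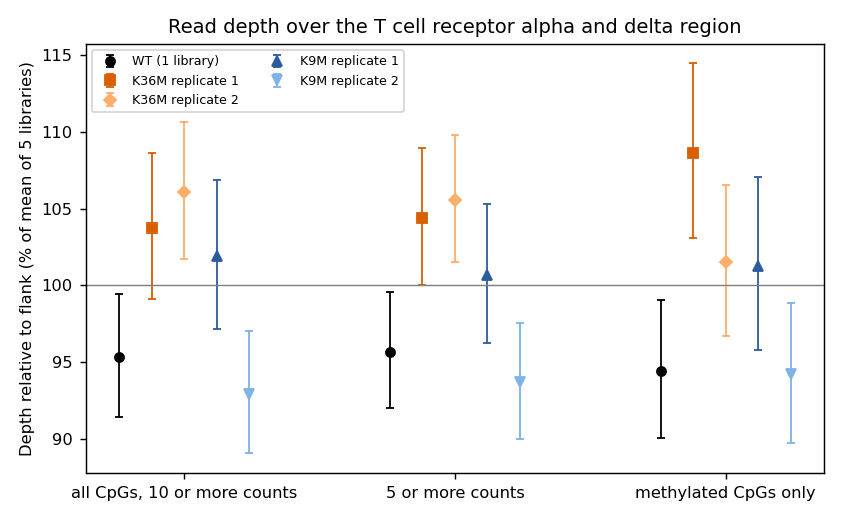
Depth over the T cell receptor alpha and delta region relative to its flank, in percent of the mean of 5 libraries (y axis, which does not start at 0), by library (symbols) under 3 choices of CpGs (x axis), with 95% counting intervals. Both K36M libraries lie above WT in each, and the 2 K9M libraries lie apart from each other.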

How the data were processed

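RRBS libraries of 1 WT, 2 K36M and 2 K9M mouse samples were analysed from deposited tables that list each CpG with a methylation fraction and a total count. The tools cutadapt and BSMAP and the build mm9 are named in the submitters' processing notes. Their settings are not given in the sources used here. The deposited fraction times the deposited total count, rounded, was taken as the methylated count. The second count was the total minus the methylated count in 4 libraries, and the deposited total in K9M replicate 2, a reading inferred from the values. Relative levels divide the ratio of the 2 counts by the library's plateau, its median over the 20% of 1 kb tiles with the highest mean rank (1.23 in WT, 1.22 and 1.26 in K36M, 1.37 and 0.954 in K9M). A change that scales a whole library cannot be seen on this level. Where a deposited level was empty, the whole total was taken as the second count. Such a CpG was kept only where that count met the coverage minimum.

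Tiles of 1 kb with at least 3 CpGs were fitted in a quasi-binomial logistic model over all 5 libraries, with 2 residual degrees of freedom, the log plateau as offset, dispersion moderated with limma 3.58.1 (R 4.3.3), with the log mean count as trend and a floor of 1, and Benjamini-Hochberg adjustment over 152678 tiles. CpGs on 1 read are not independent. The dispersion lay above 1 in 22.3% of tiles and in 25 of the 92 window tiles. In the other tiles the floor applied, and the p-value measures counting error with CpGs taken as independent. The fit was tested on simulated data. Earlier simulations, whose spread was unlike that of the libraries, recovered no changed tile, and the spread was then set near the dispersion of the real fit, after which some but not all of the changed tiles were called. Dispersion moderated without the trend, or robustly, was also looked at for K36M against WT. It moved the number of tiles past the adjusted p in the whole series and is not used here. Another implementation of this fit on these tiles called more tiles over the whole series, for a reason that was not found, so the shares of all tiles called are uncertain. Intervals at 95% cover counting error only, with CpGs taken as independent.

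Gene starts were placed by sliding the CpG spacing of RefSeq's GRCm38.p6 stretches along the listed mm9 CpGs, with at least 6 matches, 90% of listed CpGs matched and a lead of 2 over the next placement. Gata3 and the looser placements compare only placements with 90% matched. Of the 7 genes, 3 were placed by the main rule and Gata3 by the looser one. The text names all 7 genes, called tiles, the largest negative difference and gain per window and comparison (as far as described), placed starts, the 3 most similar listed loci and listed loci with calls. Members, lists and scaling were chosen with earlier results of these data known. Alternatives were coverage minimums of 5 and 20, a plateau from the top 40% of tiles, deposited levels, means of CpG levels, limma, a replicate block and leaving out each mutant library. The depth was also taken as the median over CpGs.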

Additional observations from a re-analysis of the deposited data

How the results depend on the processing

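Of the comparisons between the groups over the 5 windows, K36M minus WT kept its direction under all alternatives run, and was -0.842 points with levels as deposited. K9M minus WT was 2.54 points with levels as deposited and 0.516 points with the mean of CpG levels, which turn its direction. It was -1.34 points without the Gata3 window, a setting not planned in advance. The count of called tiles for K36M against K9M was 0 with limma on relative levels, 0 with a replicate block and 0 without each mutant library in turn, and 1 with coverage minimums of 5 and 20, a plateau from the top 40% of tiles and limma with a variance trend, which was added after seeing the data. With the replicate block the adjusted p of the called Gata3 tile was 0.205 and that of the Gata3 tile 1.7 kb downstream 0.139. Same-numbered replicates deviated together with a correlation of 0.226 over window tiles and 0.0773 over all tiles, and the labels do not say that a number marks a shared batch, which was not tested further. Called tiles in the whole series, lower and higher, were 683 and 19 for K36M against WT, 39 and 72 for K9M against WT and 1794 and 103 for K36M against K9M. With limma and with the block all were 0, with limma and a variance trend they were 256 and 5, 29 and 40, and 1079 and 45, and without K36M replicate 2 they were 3 and 0, 6 and 18, and 236 and 9. Window differences that turned direction included Bcl11b K36M minus K9M at 0.144 points and Cd3 K36M minus K9M at 1.34 points when the top 40% of tiles set the plateau, Tcf7 K9M minus WT at 0.541 points and Lef1 K36M minus K9M at -0.492 points with the mean of CpG levels, Lef1 K9M minus WT at 2.21 points and Lef1 K36M minus K9M at -2.42 points with levels as deposited, and Cd3 K36M minus K9M, which ran from -4.89 to 4.36 points without 1 mutant library, with 0.698 points without K36M replicate 2 and 4.36 points without K9M replicate 2. Other sign changes were Bcl11b K9M minus WT, up to 4.59 points with levels as deposited, Cd3 K9M minus WT, up to 14.5 points with levels as deposited, Cd3 K36M minus WT, up to 1.45 points with the mean of CpG levels, and Lef1 K36M minus WT, up to 0.312 points without K36M replicate 1. The cause was not tested. RRBS depth, at 37.7 to 48.6 counts per member CpG, limits single CpGs more than windows.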
